A study of Mus musculus with 12 samples.

Results

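Shelterin caps the ends of chromosomes and telomerase extends them. The RNA of 9 genes that encode their components was followed here: Terf1, Terf2, Terf2ip, Tinf2, Acd, Pot1a, Pot1b, Tert and Dkc1. They were picked by gene symbol for their place in these complexes, and they are 9 of the 24421 genes in the count table. In shelterin, TRF1 (Terf1) and TRF2 (Terf2) bind the duplex telomere repeat, RAP1 (Terf2ip) is held by TRF2, and TIN2 (Tinf2) and TPP1 (Acd) join these proteins to the POT1 proteins, which cover the protruding strand and which mice encode in separate genes, Pot1a and Pot1b. Telomerase pairs the reverse transcriptase TERT with the RNA Terc, which carries the template. Dyskerin (Dkc1) holds and stabilizes that RNA, and TCAB1 (Wrap53) brings it to Cajal bodies.

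The study sequenced RNA from mouse embryonic fibroblasts (MEFs) to ask how the transcription factors TFEB and TFE3 shape the response to DNA damage. Its MEFs were immortalized with SV40, which the paper says can affect the stability of p53. Etoposide, which traps topoisomerase II on DNA and leaves breaks, was the damaging agent. There were 4 groups of 3 libraries. The Null untreated and Null etoposide groups came from MEFs of the genotype labelled Null, the control line, which the study's methods call wild type. The DKO untreated and DKO etoposide groups came from MEFs in which both TFEB and TFE3 had been targeted with CRISPR. Etoposide was given at 100 µM for 8 h, and the control cells are untreated according to the labels and received DMSO according to the methods. Each genotype was 1 line, so genotype and line cannot be told apart. The labels do not say whether replicates were separate cultures, so p-values here measure only the spread between these samples, which may be technical. RNA was isolated with either of 2 kits, and which library had which kit is not given in the sources used here.

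Counts on genes ranged from 66956083 to 83970210 in the Null untreated libraries, from 66749645 to 104120871 in DKO untreated, from 63286195 to 76125320 in Null etoposide and from 45577023 to 94388705 in DKO etoposide. Depth therefore varied within each group, and the shallowest library and the next to deepest were both DKO etoposide. Levels below are counts per 1000000 (CPM) of the library size after TMM scaling, which corrects that size for the composition of the library.

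Of the targeted genes, Tfeb was at 38.9, 39.2 and 42.1 CPM in Null untreated and at 4.60, 6.09 and 4.68 CPM in DKO untreated. After etoposide it was at 11.4, 10.2 and 10.4 CPM in Null and at 1.92, 1.61 and 2.20 CPM in DKO. The DKO libraries held far less Tfeb RNA than the Null libraries of the same treatment, with no overlap, and the RNA was not absent from them (306, 560 and 279 counts untreated). Tfe3 was at 115, 109.9 and 114 CPM in Null untreated and at 94.1, 93.0 and 91.0 CPM in DKO untreated. After etoposide it was at 68.5, 69.6 and 68.1 CPM in Null and at 70.7, 71.2 and 63.4 CPM in DKO. Tfe3 RNA was thus a little lower in untreated DKO libraries, and the genotypes overlapped after etoposide. Tfeb fell by 2.94 on the log2 scale in untreated DKO (SE 0.09, adjusted p = 1.05e-14, edgeR's quasi-likelihood test, Benjamini-Hochberg adjusted over 15220 genes), and in DKO against Null MEFs after etoposide it was at -2.46 (SE 0.12, adjusted p = 5.06e-12). Tfe3 differed by -0.29 (SE 0.04, adjusted p = 8.67e-06) and -0.01 (SE 0.04, adjusted p = 0.871) in the same comparisons. Edited genes can keep their RNA, so counts per gene do not test the editing of Tfe3.

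The label of the cells was checked with marker genes. All 10 fibroblast markers had counts, with Vim the most abundant at a mean of 1880 CPM, while Thy1 and Lum, also on the list, had means of only 1.62 and 0.381 CPM. Their summed level was 7089.6, 7083 and 7189 CPM in Null untreated and 11526, 12112 and 11588 CPM in DKO untreated. After etoposide it was 4052, 3963 and 3956 CPM in Null and 5241, 5334 and 5010.1 CPM in DKO. The sum was highest in untreated DKO libraries and lowest in Null libraries after etoposide, and no 2 groups overlapped. After etoposide 9 of the 10 markers fell in either genotype, where 37.2% of all genes fell in Null and 31.5% in DKO MEFs. In untreated DKO against Null MEFs 9 of 10 were higher and 1 lower, beside 33.3% and 33.4% of all genes. Fewer cells of a type and less RNA per cell cannot be told apart in such samples. Summed markers of other cells were low in every library: 2.02 to 5.94 CPM for 6 epithelial genes (most abundant Krt8), 0.0543 to 2.89 CPM for 4 endothelial genes (Tek), 1.71 to 14.9 CPM for 6 haematopoietic genes (Cd68) and 0.206 to 1.15 CPM for 6 pluripotent and germ cell genes (Nanog). None of these genes was at 0 in all 12 libraries. The epithelial sum, led by Krt8, did not follow its list gene by gene. In untreated DKO against Null MEFs 1 of the 6 genes was higher and 2 lower, beside 33.3% and 33.4% of all genes. With etoposide in DKO MEFs 4 rose and 1 fell, beside 43.7% and 31.5% of all genes. Means of the epithelial sum were 2.60 CPM in Null untreated and 5.36 CPM in DKO untreated. They were 3.76 CPM in Null etoposide and 2.25 CPM in DKO etoposide. For the same groups in this order, the pluripotent and germ cell sum had means of 0.893, 0.391, 1.01 and 0.559 CPM. The haematopoietic sum was highest in Null etoposide, with a mean of 14.2 CPM, against 2.00 CPM in Null untreated, 2.14 CPM in DKO untreated and 4.31 CPM in DKO etoposide. The endothelial sum had means of 0.130 CPM in Null untreated, 0.133 CPM in DKO untreated, 2.54 CPM in Null etoposide and 1.0995 CPM in DKO etoposide. The sum of 12 proliferation genes, led by Mki67, was 4446, 4329.6 and 4267 CPM in Null untreated and 4572, 4552 and 4613 CPM in DKO untreated. It was 3761, 3764 and 3817 CPM in Null etoposide and 4082, 4015 and 4281 CPM in DKO etoposide. This sum was thus lowest in Null MEFs after etoposide. Gene by gene, however, 7 of the 12 were higher and 5 lower in DKO than in Null MEFs after etoposide. Of all genes, 37.5% were higher and 36.6% lower in that comparison. These marker sums moved with the groups in which the telomere genes were compared, and their part in the results was not tested.

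Among the members, Dkc1 was the most abundant and Tert the least in every group when levels were expressed per kilobase of exon. In Null untreated libraries the mean level per kb was 32.3 CPM for Dkc1, then 8.99 for Tinf2, 7.53 for Terf2, 7.18 for Terf2ip and 6.53 for Acd, with no overlap between neighbours. Terf1 (2.87 CPM per kb) and Pot1a (2.72 CPM per kb) overlapped each other, and Pot1b (1.01 CPM per kb) and Tert (0.0861 CPM per kb) followed apart from them. In DKO untreated the order was the same, from Dkc1 at 30.9 to Tert at 0.00437 CPM per kb, except that Terf2 and Terf2ip overlapped and Terf1 and Pot1a did not. In Null etoposide Terf2ip (8.71 CPM per kb) reached the level of Tinf2 (8.73 CPM per kb) and overlapped it, Pot1a came before Terf1 with overlap, Dkc1 stood at 22.8 CPM per kb and Tert at 0.342 CPM per kb. In DKO etoposide Dkc1 stood at 42.9 CPM per kb, Terf2ip (10.0) and Terf2 (9.09) came before Tinf2 (8.83) and Acd (8.38), of which only the last pair overlapped, and Tert stood at 0.0130 CPM per kb. With the length of the longest transcript in place of all exons, Pot1a came before Terf1 in both untreated groups and after etoposide in Null MEFs also before Acd, and Terf2 came before Tinf2 in all groups but Null untreated, and before Terf2ip in both etoposide groups. Pot1a exceeded Pot1b per kb by 2.71 ± 0.379 times (SD, n = 3) in Null untreated, 2.17 ± 0.129 in DKO untreated, 2.30 ± 0.0778 in Null etoposide and 1.84 ± 0.293 in DKO etoposide. By the longest transcript the same ratio was 4.88 ± 0.683, 3.91 ± 0.233, 4.135 ± 0.140 and 3.31 ± 0.527 in these groups.

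TRF1 and TRF2 bind duplex telomere repeats, and RAP1 reaches the telomere through TRF2. Terf1 (chr1:15805646-15844052, plus strand, GRCm38) was at 14.04, 13.2 and 12.5 CPM in Null untreated and at 17.1, 15.4 and 16.4 CPM in DKO untreated. After etoposide Terf1 was at 11.8, 14.1 and 11.8 CPM in Null and at 14.8, 13.7 and 14.05 CPM in DKO. The untreated DKO libraries were highest, above every other library, and the Null groups overlapped each other. Terf2 (chr8:107069400-107096547, minus strand) was at 34.2, 34.6 and 35.0 CPM in Null untreated and at 32.9, 34.8 and 33.5 CPM in DKO untreated. With etoposide Terf2 reached 35.6, 37.3 and 36.0 CPM in Null and 41.7, 41.8 and 41.8 CPM in DKO. The DKO etoposide libraries lay above all 9 others and were close together. Terf2ip (chr8:112011398-112020528, plus strand) was at 35.7, 34.6 and 36.6 CPM in Null untreated and at 36.6, 34.1 and 33.5 CPM in DKO untreated. It was at 41.2, 43.7 and 44.7 CPM in Null etoposide and at 45.1, 49.9 and 53.8 CPM in DKO etoposide. All 6 etoposide libraries lay above all 6 untreated libraries, and the DKO etoposide libraries were the highest.

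The linkers TIN2 and TPP1 hold shelterin together, and TPP1 also recruits telomerase. Tinf2 (chr14:55674689-55681820, minus strand) ranged only from 39.4 to 45.0 CPM over the 12 libraries. Its untreated libraries were at 45.0, 43.6 and 44.6 CPM in Null and at 42.7, 41.5 and 39.4 CPM in DKO, without overlap, and its etoposide libraries overlapped those of both. Acd (chr8:105695860-105701102, minus strand) was at 23.9, 23.4 and 23.7 CPM in Null untreated and at 24.5, 24.2 and 24.3 CPM in DKO untreated. It was at 23.3, 20.7 and 22.7 CPM in Null etoposide and at 32.2, 30.7 and 28.2 CPM in DKO etoposide. The DKO etoposide libraries were the only high ones, and the other 9 lay within a few CPM of each other. Of the 75-base windows of Tinf2 and Acd exons, 23.4% and 18.0% also lie in an exon of another gene, mainly Gmpr2 and Carmil2 on the opposite strand. Whether the counting used the strand is not given in the sources used here, so reads of these overlapping genes may be mixed or lost. Terf2ip shares 0.696% of such windows, mainly with Gm6793, and Terf1 shares 1.45%.

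POT1 proteins cover the protruding strand; Pot1a is the mouse gene tied to silencing of the ATR damage signal, and Pot1b the gene tied to limiting resection of the other strand. Pot1a (chr6:25743737-25809246, minus strand) was at 25.4, 23.7 and 21.7 CPM in Null untreated and at 25.2, 23.7 and 25.7 CPM in DKO untreated. It was at 28.3, 26.4 and 25.9 CPM in Null etoposide and at 27.1, 25.9 and 27.8 CPM in DKO etoposide. Etoposide libraries lay above the untreated libraries of the same genotype, and the genotypes overlapped in either condition. Pot1b (chr17:55651951-55712628, minus strand) was at 5.22, 4.98 and 5.81 CPM in Null untreated and at 6.92, 7.12 and 6.88 CPM in DKO untreated. It was at 7.76, 6.98 and 6.63 CPM in Null etoposide and at 7.87, 10.4 and 8.86 CPM in DKO etoposide. Null untreated libraries were lowest, DKO etoposide libraries were highest, and the other groups overlapped between them.

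**Figure D1:**
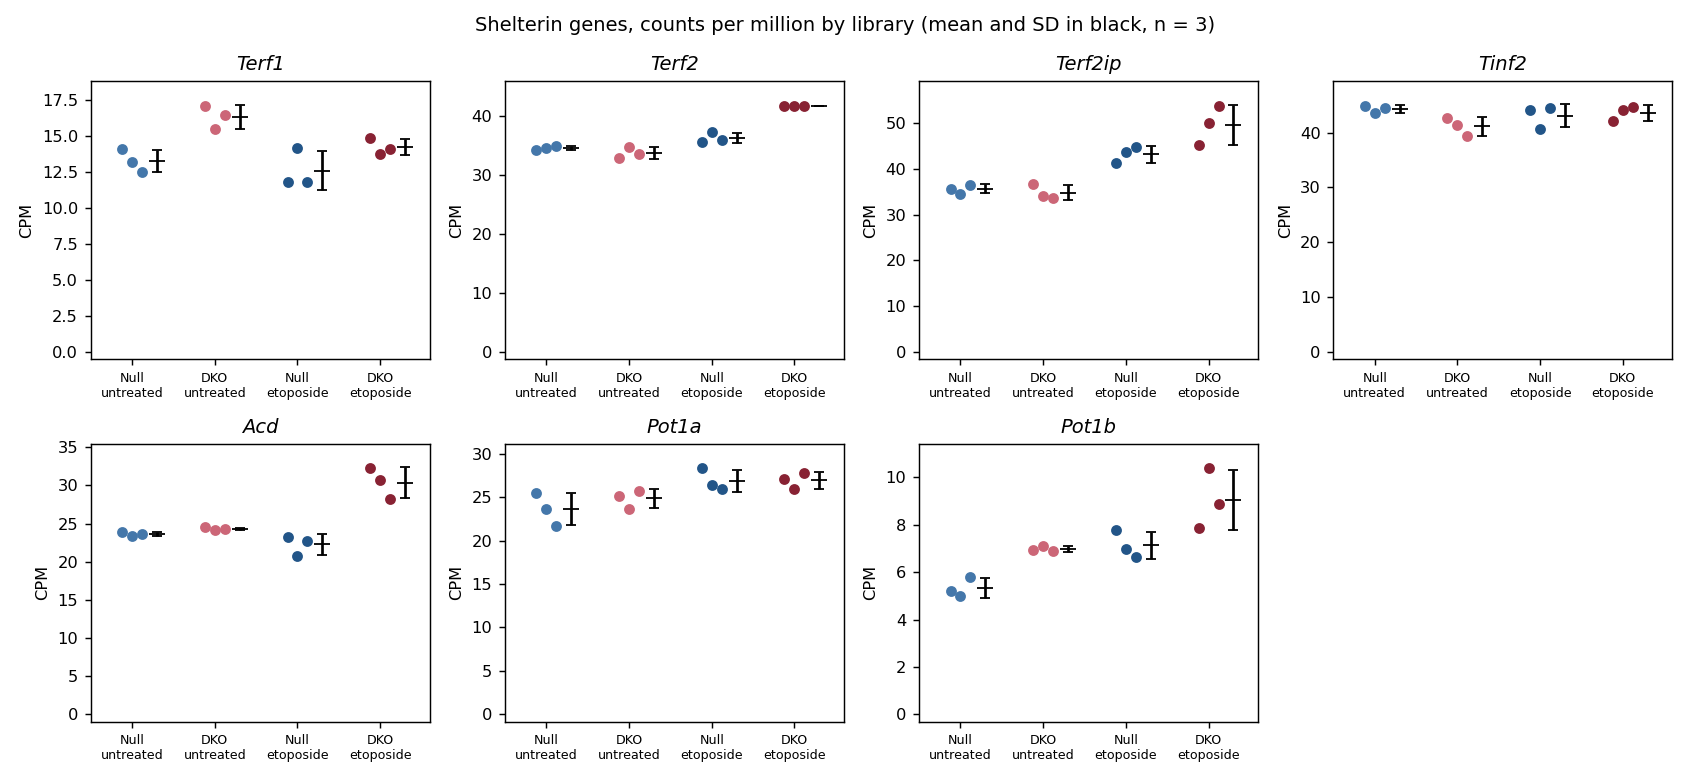
Each panel plots 1 shelterin gene in CPM (vertical axis, TMM-scaled) for the 12 libraries in 4 groups, with a point per library and a black mark and bar for the mean and SD of 3 libraries. Terf2 and Acd stand out in DKO etoposide, Terf2ip is higher in both etoposide groups, Terf1 is highest in DKO untreated, and Tinf2 stays between 39.4 and 45.0 CPM.

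TERT is the catalytic subunit of telomerase, and Tert (chr13:73626911-73649843, plus strand) was sparse. It had 49, 25 and 32 counts in Null untreated and 5, 0 and 0 counts in DKO untreated. With etoposide it had 136, 178 and 142 counts in Null and 1, 4 and 15 counts in DKO. Null libraries had the most counts, above all after etoposide, and every DKO library lay below every Null library. In CPM, Tert was at 0.602, 0.384 and 0.494 in Null untreated, 0.0752, 0 and 0 in DKO untreated, 1.66, 2.15 and 2.07 in Null etoposide, and 0.0202, 0.0546 and 0.149 in DKO etoposide. In the DKO untreated libraries without a count, 3 counts would be 0.0326 and 0.0503 CPM, the level that a count of 0 allows. The summed scaled counts gave a ratio of Null to DKO of 21.9 (106 against 5 counts, exact 95% interval 9.09 to 68.8) without etoposide. After etoposide this ratio of Null to DKO was 21.9 (456 against 20 counts, interval 13.98 to 36.1). The ratio of etoposide to untreated was 3.90 in Null (interval 3.15 to 4.86) and 3.91 in DKO (interval 1.42 to 13.3). These intervals cover counting error only and not the spread between libraries.

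Terc, the template RNA of telomerase, has no protein product and is read here because the libraries were made from total RNA. It was at 38.3, 44.9 and 44.9 CPM in Null untreated and at 23.4, 25.0 and 21.6 CPM in DKO untreated. With etoposide Terc reached 58.2, 54.0 and 62.2 CPM in Null and 29.9, 32.3 and 32.5 CPM in DKO. The DKO libraries were below all Null libraries, and etoposide libraries were above untreated ones within each genotype. The first 65 bases of the 423-base Terc transcript (GENCODE M21, chr3:96414437-96414859, minus strand) hold the template, whose letters CTAACCC at bases 29 to 35 are the complement of the telomere repeat and are in capitals here, 5′ to 3′.
Terc bases 1 to 65: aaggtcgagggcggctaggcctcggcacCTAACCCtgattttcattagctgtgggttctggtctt

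Dyskerin, the product of Dkc1 (chrX:75095854-75109777, plus strand), binds Terc and also the small nucleolar RNAs that guide pseudouridylation of ribosomal RNA. Dkc1 was at 135, 135 and 129.6 CPM in Null untreated and at 127, 129 and 126 CPM in DKO untreated. It was at 91.6, 98.6 and 91.6 CPM in Null etoposide and at 173, 178 and 179.7 CPM in DKO etoposide. After etoposide Dkc1 was below all untreated libraries in Null MEFs and above all of them in DKO MEFs. Its exons overlap Mpp1 on the opposite strand but share 0 of their 75-base windows with it. Wrap53 (chr11:69561758-69580255, minus strand) encodes TCAB1, which takes Terc to Cajal bodies. Wrap53 was at 37.3, 40.7 and 39.7 CPM in Null untreated and at 29.6, 32.0 and 31.8 CPM in DKO untreated. It was at 84.7, 79.8 and 82.6 CPM in Null etoposide and at 42.6, 42.2 and 42.4 CPM in DKO etoposide. Null etoposide libraries were far above the rest for Wrap53, DKO untreated libraries were lowest, and no 2 groups overlapped.

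**Figure D2:**
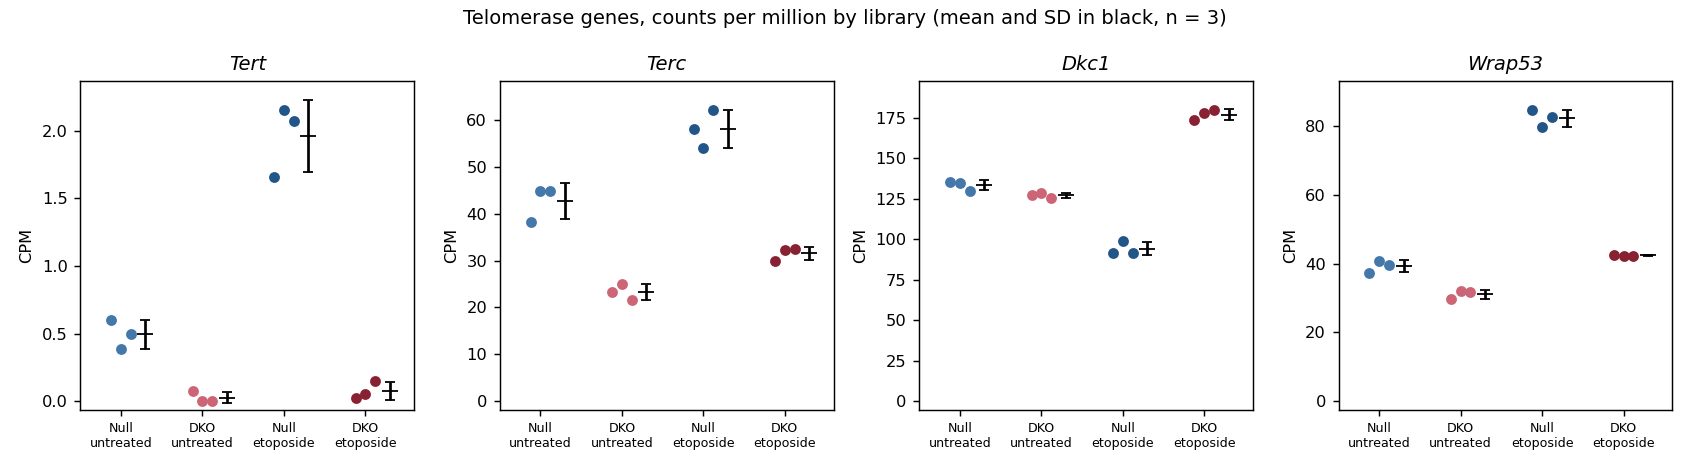
Each panel plots 1 telomerase gene in CPM (vertical axis, TMM-scaled) for the 12 libraries in 4 groups, with a point per library and a black mark and bar for the mean and SD of 3 libraries. Tert and Terc are lower in DKO than in Null libraries, and after etoposide Dkc1 is highest in DKO and Wrap53 highest in Null libraries.

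Promoter sequences are shown for Tert, for the 4 members whose response to etoposide differed between the genotypes past the test (Terf2, Terf2ip, Acd and Dkc1) and for Wrap53. Each is 250 bases before to 50 bases after a start site from RefSeq (GRCm38.p6), 5′ to 3′ on the strand of the gene. Capitals mark CACGTG, the core of the E-box that TFEB and TFE3 are known to bind, and GGGCGG or its reverse complement CCGCCC, the GC box, searched on both strands. Over all 32851 windows of this table, CACGTG was in 7.15%, the longer TCACGTGA, which contains it, in 0.974%, and the GC box in 35.7%.
Tert chr13:73626661-73626960 plus strand: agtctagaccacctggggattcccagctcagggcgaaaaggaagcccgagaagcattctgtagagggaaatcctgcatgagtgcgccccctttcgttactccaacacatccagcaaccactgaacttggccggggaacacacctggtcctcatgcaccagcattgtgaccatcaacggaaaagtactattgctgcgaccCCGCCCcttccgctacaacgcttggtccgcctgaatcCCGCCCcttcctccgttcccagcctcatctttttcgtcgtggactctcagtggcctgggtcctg
Dkc1 chrX:75095604-75095903 plus strand: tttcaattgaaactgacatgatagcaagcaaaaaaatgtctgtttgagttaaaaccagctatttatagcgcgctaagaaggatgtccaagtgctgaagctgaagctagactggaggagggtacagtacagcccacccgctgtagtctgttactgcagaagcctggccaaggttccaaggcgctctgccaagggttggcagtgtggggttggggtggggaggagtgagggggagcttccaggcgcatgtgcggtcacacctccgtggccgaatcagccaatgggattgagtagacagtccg
Terf2 chr8:107096496-107096795 minus strand: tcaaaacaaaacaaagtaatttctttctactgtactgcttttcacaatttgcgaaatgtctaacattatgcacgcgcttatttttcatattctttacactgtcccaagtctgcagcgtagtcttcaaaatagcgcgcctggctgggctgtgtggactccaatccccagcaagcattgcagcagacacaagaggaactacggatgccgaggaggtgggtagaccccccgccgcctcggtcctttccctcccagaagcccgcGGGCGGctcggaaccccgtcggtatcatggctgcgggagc
Terf2ip chr8:112011109-112011408 plus strand: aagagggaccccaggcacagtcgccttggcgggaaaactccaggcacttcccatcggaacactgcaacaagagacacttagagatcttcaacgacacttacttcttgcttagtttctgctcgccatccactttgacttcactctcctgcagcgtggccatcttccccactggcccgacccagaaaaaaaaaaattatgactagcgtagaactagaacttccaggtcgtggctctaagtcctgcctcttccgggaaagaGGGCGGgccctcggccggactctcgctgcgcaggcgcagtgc
Acd chr8:105701179-105701478 minus strand: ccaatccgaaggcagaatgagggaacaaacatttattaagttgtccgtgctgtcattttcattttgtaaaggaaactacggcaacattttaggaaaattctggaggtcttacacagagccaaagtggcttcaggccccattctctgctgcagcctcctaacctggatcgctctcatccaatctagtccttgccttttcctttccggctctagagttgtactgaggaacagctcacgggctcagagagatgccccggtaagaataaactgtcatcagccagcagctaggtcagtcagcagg
Wrap53 chr11:69580201-69580500 minus strand: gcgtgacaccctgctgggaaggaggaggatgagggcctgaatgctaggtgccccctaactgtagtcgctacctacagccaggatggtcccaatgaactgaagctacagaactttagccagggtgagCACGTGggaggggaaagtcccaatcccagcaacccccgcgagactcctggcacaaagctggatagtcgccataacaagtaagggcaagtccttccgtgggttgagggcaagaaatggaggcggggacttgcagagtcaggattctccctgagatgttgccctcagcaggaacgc

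The table held 10 windows for 8 of the 9 members. CACGTG was in 0 of these 10 windows and the GC box in 7 of them, from 5 members (Terf2, Terf2ip, Pot1a, Pot1b and Tert). In Tert the GC box starts at positions -51 and -14, in the Terf2 window shown at position 11 and in Terf2ip at position 9, all counted from the start site. In the Wrap53 window shown, 1 of 2 in the table, CACGTG starts at position -124. A match describes only these letters in this stretch, and its absence says nothing of binding elsewhere.

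After etoposide, Null MEFs had more Tert, Pot1a, Pot1b and Terf2ip and less Dkc1 than untreated Null MEFs. Tert rose 3.89-fold, from a mean of 0.493 ± 0.109 to 1.96 ± 0.265 CPM (SD, n = 3 each), and each etoposide library was above each untreated one. Dkc1 fell by 0.50 on the log2 scale, a 1.42-fold change from 133 ± 3.14 to 93.9 ± 4.03 CPM, also without overlap. Pot1b rose 1.34-fold and Terf2ip 1.21-fold. Outside the members, Wrap53 rose 2.10-fold and Terc 1.36-fold. By the quasi-likelihood test of edgeR, with p Benjamini-Hochberg adjusted, the log2 fold changes were 1.96 for Tert (SE 0.27, adjusted p = 1.32e-06), -0.50 for Dkc1 (SE 0.04, adjusted p = 5.21e-10), 0.42 for Pot1b (SE 0.11, adjusted p = 0.00144), 0.28 for Terf2ip (SE 0.06, adjusted p = 0.000294) and 0.18 for Pot1a (SE 0.06, adjusted p = 0.00967). Wrap53 changed by 1.07 (SE 0.04, adjusted p = 1.92e-13) and Terc by 0.45 (SE 0.07, adjusted p = 9.26e-06). The members not past the threshold were Terf1 at -0.08 (adjusted p = 0.365), Terf2 at 0.07 (0.121), Tinf2 at -0.04 (0.396) and Acd at -0.09 (0.154). A p that misses the threshold does not show that values did not differ. In all 5 of 9 members passed, where 79.4% of the 15220 genes tested passed, 42.3% of them higher and 37.2% lower. Tert entered the test only because its Null libraries passed the filter on low counts, so of the 8 other members 3 rose and 1 fell. The 8 members without Tert had a median log2 fold change of 0.01, beside 0.07 for all genes. With library size alone as the scaling, that median of all genes moved by 0.17, 64.0% in place of 53.2% of all calls were higher, Terf2ip and Pot1a were at 0.45 and 0.35, and Tinf2 passed with the opposite sign at 0.12. Pot1a was not past the threshold without Null untreated replicate 3 (0.12) or without Null etoposide replicate 1 (0.14), and its adjusted p ranged from 4.87e-05 to 0.0879 over 21 alternatives. Terf1 passed, at -0.18, without Null etoposide replicate 2 (range over its alternatives 0.0392 to 0.920), and Terf2 passed at 0.11 to 0.24 with DESeq2 or its size factors, library size alone or a stricter filter.

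DKO MEFs after etoposide had more Dkc1, Terf2ip, Pot1b, Acd and Terf2 than untreated DKO MEFs. Terf2ip rose 1.43-fold, from 34.7 ± 1.62 to 49.6 ± 4.36 CPM, and Dkc1 rose 1.39-fold, from 127 ± 1.54 to 177 ± 3.21 CPM, neither with overlap. Acd rose 1.24-fold, from 24.3 ± 0.152 to 30.4 ± 2.05 CPM, and Terf2 1.24-fold, from 33.8 ± 0.955 to 41.8 ± 0.0625 CPM. Terf1 fell by 0.20 on the log2 scale with TMM scaling, but with library size alone it was at 0.07 and not past the threshold. By the same edgeR test the log2 fold changes were 0.52 for Terf2ip (SE 0.06, adjusted p = 3.19e-07), 0.48 for Dkc1 (SE 0.04, adjusted p = 1.48e-09), 0.38 for Pot1b (SE 0.10, adjusted p = 0.00209), 0.31 for Acd (SE 0.06, adjusted p = 7.25e-05), 0.31 for Terf2 (SE 0.04, adjusted p = 2.13e-06) and -0.20 for Terf1 (SE 0.08, adjusted p = 0.0231). Wrap53 rose by 0.44 (SE 0.04, adjusted p = 9.21e-08) and Terc by 0.44 (SE 0.07, adjusted p = 3.28e-05). Tert was at 1.89 with a wide error (SE 1.16, adjusted p = 0.146), Tinf2 at 0.08 (adjusted p = 0.104) and Pot1a at 0.12 (adjusted p = 0.0792). Thus 6 of 9 members passed, beside 75.1% of all genes, 43.7% higher and 31.5% lower. The 8 members without Tert had a median of 0.31, beside 0.14 for all genes. With library size alone the median of all genes moved by 0.27, 75.6% in place of 58.1% of calls were higher, Terf2ip, Dkc1, Pot1b, Acd and Terf2 were at 0.79, 0.75, 0.65, 0.59 and 0.58, Terc and Wrap53 at 0.71 and 0.72, and Tinf2 and Pot1a passed at 0.36 and 0.39, as they did with a stricter filter at 0.12 and 0.16. Terf1 was also not past the threshold with the stricter filter (-0.17) or without DKO etoposide replicate 2 (-0.19), and its adjusted p lay between 0.00681 and 0.394 in 21 alternatives. Tert rested on single libraries: it was at 0.77 without DKO etoposide replicate 3 and passed at 5.74 without DKO untreated replicate 1, which leaves 2 libraries at 0 and a fitted value that is no bound, and it passed at 1.85 with DESeq2 (adjusted p 0.0253 to 0.667 over its alternatives).

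The difference between these responses was tested as an interaction, the etoposide change in DKO minus that in Null MEFs. It was largest for Dkc1, which fell in Null and rose in DKO cells, so that the responses differed 1.97-fold. Acd, Terf2 and Terf2ip were also higher in their response in DKO cells, by 1.32, 1.18 and 1.18 times. Wrap53 went the other way, with a rise that was 1.54 times smaller in DKO cells. By edgeR's quasi-likelihood test the interaction was 0.98 for Dkc1 (SE 0.05, adjusted p = 3.81e-11), 0.40 for Acd (SE 0.08, adjusted p = 0.000325), 0.24 for Terf2 (SE 0.06, adjusted p = 0.00163), 0.24 for Terf2ip (SE 0.08, adjusted p = 0.0189) and -0.63 for Wrap53 (SE 0.06, adjusted p = 1.70e-07). The others were not past the threshold: Terf1 at -0.12 (adjusted p = 0.360), Tinf2 at 0.13 (0.109), Pot1a at -0.06 (0.560), Pot1b at -0.04 (0.847), Tert at -0.07 (1.00) and, outside the members, Terc at -0.01 (0.954). Hence 4 of 9 members passed, all of them higher, where 54% of all genes passed, 29.6% higher and 24.4% lower. The median of the 8 members without Tert was 0.18, beside 0.05 for all genes. With library size alone the median of all genes moved by 0.10, 65.3% in place of 54.8% of calls were higher, and Tinf2 passed at 0.23. Terf2ip was not past the threshold with DESeq2 or its size factors (0.18 each) or without DKO untreated replicate 2 (0.21), DKO etoposide replicate 3 (0.17) or Null etoposide replicate 1 (0.20), with adjusted p from 0.00111 to 0.0720 over its alternatives. For Tert the value ranged from -1.19 to 3.79 as libraries were left out in turn, so no difference in its response was measurable at this depth.

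Untreated DKO MEFs had less Tert and Terc than untreated Null MEFs and more Terf1 and Pot1b. Tert was 20.4-fold lower in the fit, at 0.0251 ± 0.0434 against 0.493 ± 0.109 CPM. Terc fell by 0.87 on the log2 scale and Wrap53 by 0.33. Pot1b was 1.31-fold higher, at 6.97 ± 0.129 against 5.34 ± 0.426 CPM, and Terf1 1.23-fold higher, at 16.3 ± 0.825 against 13.2 ± 0.784 CPM. By the same test of edgeR the log2 fold changes were -4.35 for Tert (SE 0.76, adjusted p = 3.47e-05), 0.39 for Pot1b (SE 0.11, adjusted p = 0.00373), 0.29 for Terf1 (SE 0.08, adjusted p = 0.00235) and -0.11 for Tinf2 (SE 0.05, adjusted p = 0.0478). Terc was at -0.87 (SE 0.07, adjusted p = 6.03e-09) and Wrap53 at -0.33 (SE 0.05, adjusted p = 3.93e-06). Terf2 (-0.03, adjusted p = 0.466), Terf2ip (-0.04, 0.613), Acd (0.04, 0.574), Pot1a (0.07, 0.338) and Dkc1 (-0.07, 0.105) were not past the threshold. So 4 of 9 members passed, beside 66.7% of all genes, 33.3% higher and 33.4% lower. Tert entered the test only through its Null libraries, so its p adds little to the counts given above, and without Tert 3 of 8 passed. The medians were 0.00 for the 8 members without Tert and -0.02 for all genes. With library size alone the median of all genes moved by -0.12, 38.4% in place of 49.9% of calls were higher, Terf1 was no longer past the threshold (0.17), Tinf2 was at -0.23, and Terf2, Terf2ip and Dkc1 passed at -0.16, -0.16 and -0.19. The Tinf2 call was lost with DESeq2 or its size factors, with no filter, with replicate number taken as a block, and without any of DKO untreated replicates 2 (-0.12) and 3 (-0.08), Null untreated replicates 1 (-0.10), 2 (-0.12) and 3 (-0.10) and Null etoposide replicate 3 (-0.11), with adjusted p from 0.000210 to 0.202. Without DKO untreated replicate 1 Tert was at -8.24, a fitted value against libraries that were all at 0 and so no bound. The other end of its range, as libraries were left out in turn, was -3.61. Dkc1 passed at -0.08 with a stricter filter or with only the 6 libraries compared.

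After etoposide, DKO MEFs had more Dkc1, Acd, Pot1b, Terf2ip and Terf2 than Null MEFs, and less Tert, Terc and Wrap53. Dkc1 was 1.88-fold higher, at 177 ± 3.21 against 93.9 ± 4.03 CPM, and Acd 1.36-fold higher, at 30.4 ± 2.05 against 22.3 ± 1.34 CPM. Tert was 21.5-fold lower in the fit, at 0.0746 ± 0.0666 against 1.96 ± 0.265 CPM. Wrap53 was 1.94-fold lower and Terc 1.84-fold lower. No library of these genes crossed into the range of the other genotype. By edgeR's quasi-likelihood test the log2 fold changes were 0.91 for Dkc1 (SE 0.04, adjusted p = 2.09e-13), 0.44 for Acd (SE 0.06, adjusted p = 1.30e-06), 0.35 for Pot1b (SE 0.10, adjusted p = 0.00349), 0.21 for Terf2ip (SE 0.06, adjusted p = 0.00349), 0.20 for Terf2 (SE 0.04, adjusted p = 0.000165) and -4.43 for Tert (SE 0.39, adjusted p = 2.21e-09). Wrap53 was at -0.96 (SE 0.04, adjusted p = 1.43e-12) and Terc at -0.88 (SE 0.07, adjusted p = 2.46e-09). Terf1 (0.17, adjusted p = 0.0529), Tinf2 (0.02, 0.705) and Pot1a (0.00, 0.950) were not past the threshold. With that, 6 of 9 members passed, beside 74% of all genes, 37.5% higher and 36.6% lower. Here too Tert entered the test only through its Null libraries, and without it 5 of 8 passed. The median of the 8 members without Tert was 0.20, beside -0.00 for all genes. Without DKO etoposide replicate 3 Terf2ip was at 0.13 and Tert at -5.54, and without DKO etoposide replicate 2 Pot1b was at 0.23, each still past the threshold. Terf1 passed with limma-trend (0.18) and without Null untreated replicate 3 (0.18) or Null etoposide replicate 2 (0.26), with adjusted p from 0.00518 to 0.225 over its alternatives. This comparison shares its libraries with the interaction and with the etoposide comparisons, so their values are not independent of each other.

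**Figure D3:**
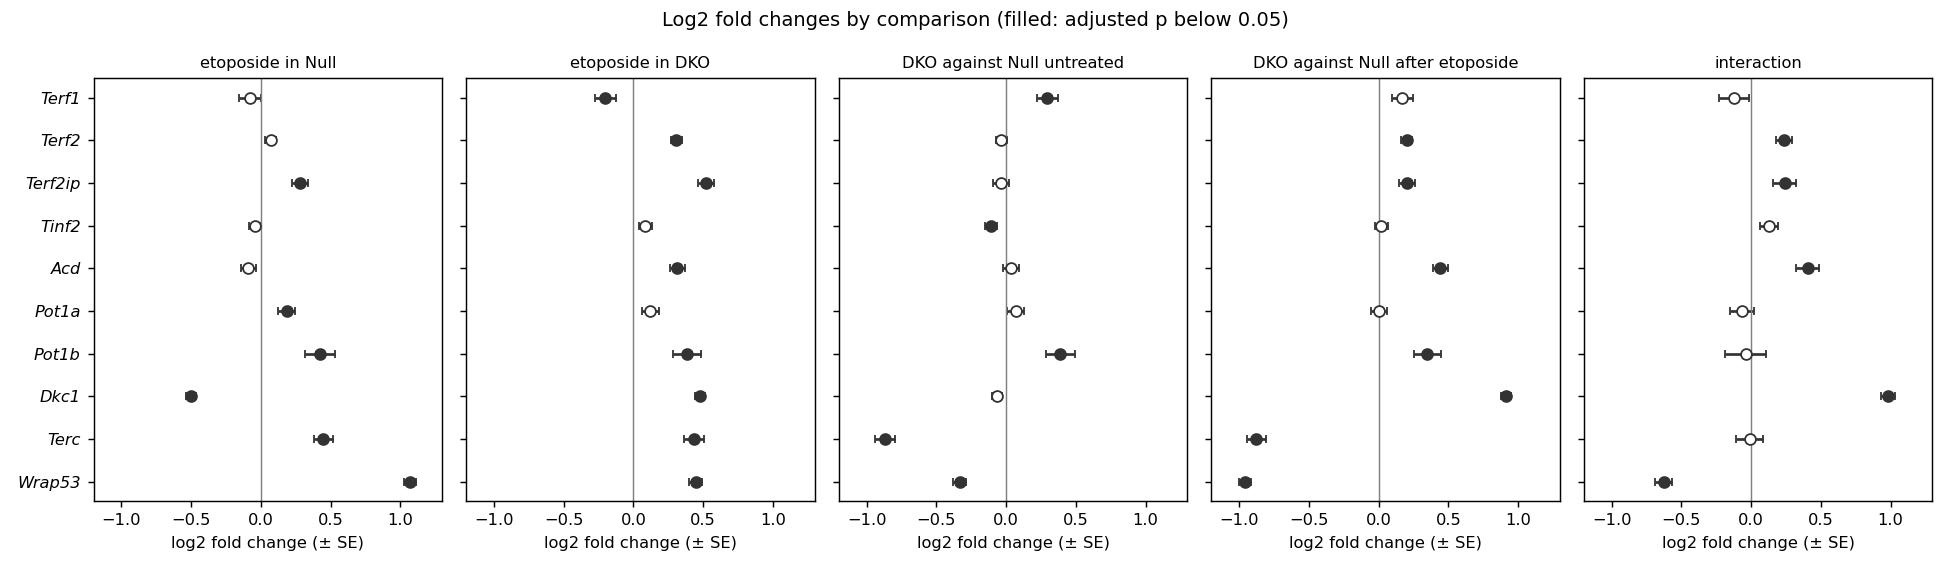
Log2 fold changes (horizontal axis, bars show the SE) of the 8 members without Tert and of Terc and Wrap53 in the 5 comparisons, filled where the adjusted p is below 0.05. Dkc1 lies at -0.50 for etoposide in Null and 0.48 in DKO MEFs, and Terf1 after etoposide in DKO MEFs (-0.20) is at 0.07 with library size alone.

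The proteins around telomerase and shelterin were described by gene lists. The 15 genes for telomerase assembly were Terc itself, the inhibitor Pinx1 and genes that build, mature or move the Terc particle. Of them 5 rose, 8 fell and 2 did not pass after etoposide in Null MEFs. Their median log2 fold change was -0.16 (0.07 for all genes). In DKO MEFs 9 rose, 2 fell and 4 did not pass, with a median of 0.21 (0.14 for all genes). The interaction was higher for 9, lower for 2 and not past the threshold for 4, with a median of 0.29 (0.05 for all genes). In untreated DKO against Null MEFs 2 were higher, 9 lower and 4 not past it, with a median of -0.33 (-0.02 for all genes), and after etoposide 6 were higher, 3 lower and 6 not past it, with a median of 0.02 (-0.00 for all genes). For all genes, etoposide gave 42.3% higher and 37.2% lower in Null MEFs, and 43.7% and 31.5% in DKO MEFs. The all-gene shares were 29.6% and 24.4% for the interaction. For DKO against Null MEFs they were 33.3% and 33.4% untreated, and 37.5% and 36.6% after etoposide. Naf1, an assembly factor that dyskerin complexes later exchange for Gar1, fell by 0.82 after etoposide in Null MEFs (SE 0.05, adjusted p = 2.35e-10), was at -0.87 in untreated DKO against Null MEFs (SE 0.06, adjusted p = 1.87e-10), and had an interaction of 0.84 (SE 0.08, adjusted p = 8.28e-08). Nop10, a core subunit beside dyskerin, rose by 0.56 after etoposide in DKO MEFs (SE 0.05, adjusted p = 4.50e-08), where Pinx1, an inhibitor of telomerase, was at -0.55 (SE 0.07, adjusted p = 1.32e-06), or -0.28 with library size alone. Zcchc8, a partner in nuclear RNA decay, was 0.51 higher in untreated DKO MEFs (SE 0.04, adjusted p = 4.61e-09), and Ruvbl1, an assembly ATPase, was 0.58 higher in DKO MEFs after etoposide (SE 0.12, adjusted p = 0.000328). Wrap53 gave the largest rise after etoposide in Null MEFs and the lowest values in DKO against Null MEFs after etoposide and in the interaction, given above. In every comparison of 2 groups for which a gene of these lists is named, the 3 libraries of a group lay beyond all 3 of the other. The genes were picked for the largest change past the threshold in that same comparison, so this separation follows largely from the choice and adds no support. The p-values are from the same edgeR fit.

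Telomere replication and end processing was covered by 15 genes. After etoposide 8 rose, 6 fell and 1 did not pass in Null MEFs (median 0.18), and 8 rose, 5 fell and 2 did not pass in DKO MEFs (median 0.22). Untreated DKO against Null MEFs had 4 higher, 8 lower and 3 not past the threshold (median -0.27), and after etoposide 5 were higher, 8 lower and 2 not past it (median -0.29). The interaction was higher for 5, lower for 3 and not past the threshold for 7 (median 0.05). For all genes, etoposide gave 42.3% higher and 37.2% lower in Null MEFs (median 0.07), and 43.7% and 31.5% in DKO MEFs (0.14). For DKO against Null MEFs the shares were 33.3% and 33.4% untreated (median -0.02) and 37.5% and 36.6% after etoposide (-0.00). For the interaction the all-gene shares were 29.6% and 24.4% (0.05). Dna2, a nuclease and helicase, rose by 1.58 in Null MEFs (SE 0.05, adjusted p = 1.59e-14) and by 1.63 in DKO MEFs (SE 0.06, adjusted p = 2.77e-14). Pola1, the catalytic subunit of the polymerase that fills in the C-rich strand, was at -1.07 after etoposide in Null MEFs (SE 0.05, adjusted p = 5.85e-13), and it was higher in DKO than in Null MEFs by 0.46 untreated (SE 0.05, adjusted p = 8.14e-08) and by 0.88 after etoposide (SE 0.05, adjusted p = 1.31e-11). Pif1, a helicase, was at -0.85 after etoposide in DKO MEFs (SE 0.11, adjusted p = 3.47e-06). Obfc1, the Stn1 subunit of the CST complex that guides this polymerase, was at -0.96 in untreated DKO against Null MEFs (SE 0.05, adjusted p = 1.29e-11). Mus81, a nuclease for branched DNA, was at -1.15 in DKO against Null MEFs after etoposide (SE 0.05, adjusted p = 8.69e-13) with an interaction of -0.88 (SE 0.07, adjusted p = 1.28e-08), and Ten1, another CST subunit, had an interaction of 0.45 (SE 0.10, adjusted p = 0.000950).

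Shelterin partners and regulators made up 18 genes. After etoposide 5 rose, 10 fell and 3 did not pass in Null MEFs (median -0.17), and 6 rose, 6 fell and 6 did not pass in DKO MEFs (median 0.03). Untreated DKO against Null MEFs had 8 higher, 8 lower and 2 not past the threshold (median 0.04), and after etoposide 10 were higher, 4 lower and 4 not past it (median 0.14). The interaction was higher for 7, lower for 4 and not past the threshold for 7 (median 0.13). For all genes, etoposide gave 42.3% higher and 37.2% lower in Null MEFs (median 0.07), and 43.7% and 31.5% in DKO MEFs (0.14). For DKO against Null MEFs the shares were 33.3% and 33.4% untreated (median -0.02) and 37.5% and 36.6% after etoposide (-0.00). For the interaction the all-gene shares were 29.6% and 24.4% (0.05). Tnks, which encodes a tankyrase, was at -1.04 after etoposide in Null MEFs (SE 0.05, adjusted p = 9.11e-13). In DKO MEFs Tnks was at -0.79 (SE 0.05, adjusted p = 8.10e-11), or -0.52 with library size alone. Its relative Tnks2 was at -0.67 in DKO against Null MEFs after etoposide (SE 0.03, adjusted p = 1.77e-12) with an interaction of -0.59 (SE 0.04, adjusted p = 3.17e-09). Rad50, of the MRN break sensor, rose by 0.62 in Null MEFs (SE 0.05, adjusted p = 1.13e-09), and Xrcc6, which encodes Ku70, rose by 0.39 in DKO MEFs (SE 0.04, adjusted p = 8.24e-08), or 0.66 with library size alone. Ercc4, a nuclease subunit, was 0.78 higher in untreated DKO MEFs (SE 0.06, adjusted p = 7.16e-09), and Gnl3, which encodes nucleostemin, was at -0.63 (SE 0.04, adjusted p = 6.97e-11). Gnl3l, its relative, was 1.06 higher in DKO MEFs after etoposide (SE 0.03, adjusted p = 1.43e-14), and Rif1, which limits end resection, had an interaction of 0.65 (SE 0.06, adjusted p = 1.03e-07).

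Chromatin and recombination at telomeres was covered by 10 genes. After etoposide 3 rose, 5 fell and 2 did not pass in Null MEFs (median -0.08), and 5 rose, 4 fell and 1 did not pass in DKO MEFs (median 0.08). Untreated DKO against Null MEFs had 6 higher, 3 lower and 1 not past the threshold (median 0.26), and after etoposide 8 were higher and 2 lower (median 0.29). The interaction was higher for 5, lower for 1 and not past the threshold for 4 (median 0.14). For all genes, etoposide gave 42.3% higher and 37.2% lower in Null MEFs (median 0.07), and 43.7% and 31.5% in DKO MEFs (0.14). For DKO against Null MEFs the shares were 33.3% and 33.4% untreated (median -0.02) and 37.5% and 36.6% after etoposide (-0.00). For the interaction the all-gene shares were 29.6% and 24.4% (0.05). Pml, which builds PML nuclear bodies, rose by 2.16 in Null MEFs (SE 0.06, adjusted p = 5.58e-16) and by 1.20 in DKO MEFs (SE 0.05, adjusted p = 1.67e-12), an interaction of -0.96 (SE 0.08, adjusted p = 1.20e-08). Between the genotypes Pml was 0.66 higher in untreated DKO MEFs (SE 0.06, adjusted p = 1.24e-08) and at -0.30 after etoposide (SE 0.05, adjusted p = 5.15e-05). Smchd1, a chromatin protein, was at -1.02 after etoposide in Null MEFs (SE 0.04, adjusted p = 3.86e-14) and Atrx, a chromatin remodeller, at -0.98 in DKO MEFs (SE 0.04, adjusted p = 2.29e-13). Daxx, its histone chaperone partner, was 0.67 higher in DKO MEFs after etoposide (SE 0.04, adjusted p = 2.48e-11). Fancm, a DNA translocase, was at -0.33 in untreated DKO MEFs (SE 0.04, adjusted p = 1.59e-06) with an interaction of 0.48 (SE 0.06, adjusted p = 2.28e-06). Each list is read beside the all-gene shares and medians given with the comparisons, and whether a list differs from other genes was not tested.

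**Figure D4:**
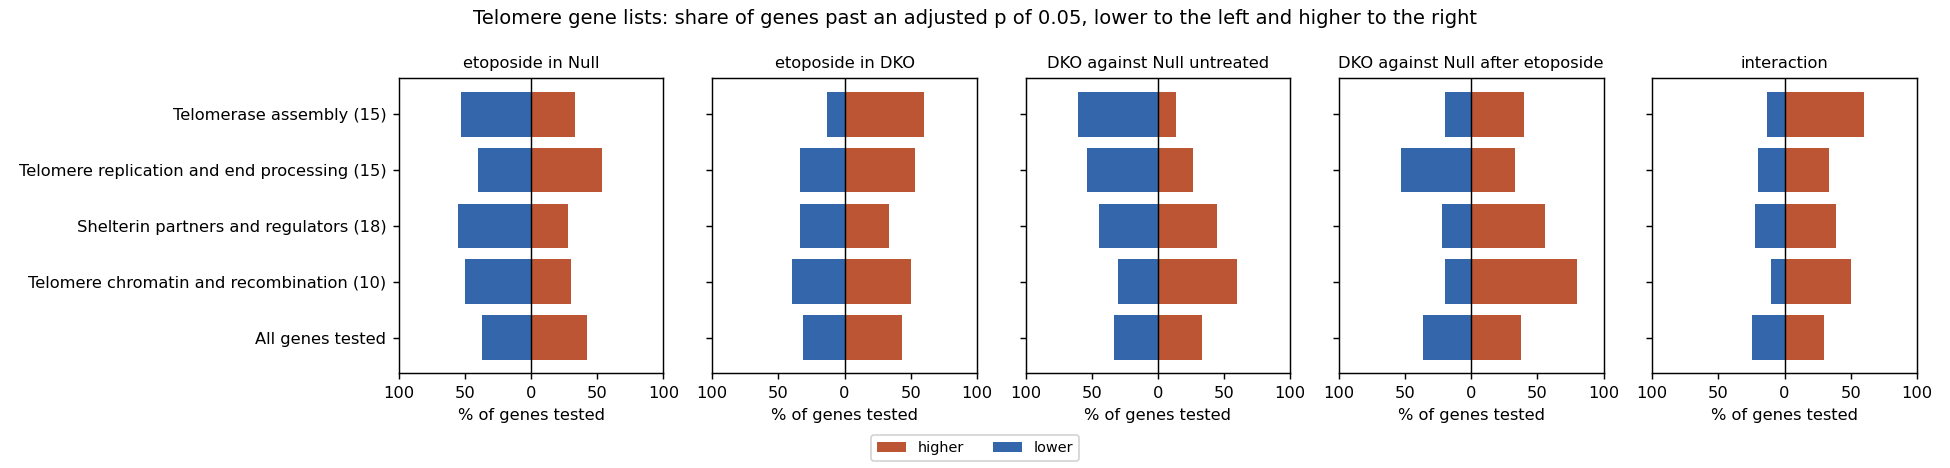
For 4 telomere gene lists (number of genes in brackets) and for all 15220 genes tested, bars give the percentage of genes past an adjusted p of 0.05 in each of the 5 comparisons, lower to the left and higher to the right of 0. Telomerase assembly has 9 of 15 genes higher in DKO MEFs after etoposide against untreated, where all genes have 43.7% higher.

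The genes with the most similar pattern to each member were found by Pearson correlation of log2 CPM over the 12 libraries among 9346 genes, as a description only, since the libraries fall into 4 groups. Dkc1 was most like Srsf6 (r = 0.995) and Timm8a1 (r = 0.992), and Terf2 most like Zfp39 (r = 0.989) and Trmt6 (r = 0.979). Terf2ip was nearest to Gtf2h3 (r = 0.984) and Skp1a (r = 0.983), and Acd to Ifrd2 and Zfp282 (r = 0.952 each). Tert was nearest to Impa1 and Mrpl13 (r = 0.979 each), with few counts of its own in DKO libraries. For Pot1b the nearest were Stx16 (r = 0.951) and Supt7l (r = 0.948), for Terf1 Gm12657 (r = 0.935) and Nuf2 (r = 0.926), and for Pot1a Zfp563 (r = 0.885) and Caap1 (r = 0.880). Tinf2 had the lowest values, with Brox (r = 0.857) and Hnrnpa0 (r = 0.844). Ranked by Spearman's rho instead, 1 of these 2 genes was named again for Terf1 and for Tinf2, Zfp39 tied for the last place for Terf2 and Stx16 for Pot1b, and 0 were named again for the other 5 members.

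Position on the chromosomes was also looked at, since a clone can gain or lose a stretch of DNA. Acd, Terf2 and Terf2ip, 3 of the 4 members with a higher interaction, lie within 6.32 Mb of chromosome 8 (chr8:105695860-112020528). These members themselves set the bounds of the stretch. The interaction compares each line with its own untreated libraries, so it does not measure a copy number that is fixed in a line. Of the 90 other genes tested in that stretch, 33 (36.7%) had a higher and 21 (23.3%) a lower interaction, with a median of 0.10, beside 29.6%, 24.4% and 0.05 for all genes. In untreated DKO against Null MEFs 30 (33.3%) were higher and 27 (30%) lower, with a median of -0.04, beside 33.3%, 33.4% and -0.02 for all genes. In DKO against Null MEFs after etoposide 41 (45.6%) were higher and 28 (31.1%) lower, with a median of 0.11, beside 37.5%, 36.6% and -0.00 for all genes. Within 250 kb of Tert, Lpcat1, Clptm1l, Slc12a7 and Nkd2 were tested, at log2 fold changes of 0.46, -0.19, 0.14 and 1.07 in untreated DKO against Null MEFs and 0.40, -0.02, -0.11 and 1.19 after etoposide, where Tert was at -4.35 and -4.43. Copy number was not measured, so its part in the differences between DKO and Null MEFs was not tested.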

How the data were processed

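The deposited table holds integer counts of read pairs per gene for 12 libraries, made by the authors before deposit: stranded, ribosome-depleted total RNA libraries, 75-base paired reads, HISAT2 alignment to mm10 and counting of uniquely aligned pairs, which the methods credit to HTSeq and the deposited notes to featureCounts. Versions and the strand setting of that step are not given in the sources used here. No reads were aligned again. The counts were used as deposited. The 5 HTSeq summary lines were set apart, and 24421 genes remained. Genes took 53.4% to 63.1% of the pairs of a library, 20.2% to 27.3% had no feature, 15.9% to 20.5% were not unique and 0.428% to 0.513% were ambiguous. The share without a feature was 20.2% to 21.1% in DKO untreated and 22.5% to 24.2% in Null untreated. It was 21.2% to 22.3% in DKO etoposide and 25.1% to 27.3% in Null etoposide. No group overlapped another in this share, and its part in the results was not tested. Depth on genes was 45577023 to 104120871, median 71634158. All columns were used (0 columns_not_used). Gene positions and lengths came from GENCODE M21 (GRCm38), by symbol for 23350 genes and by an older name for 678 more.

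R 4.3.3 with edgeR 4.0.16, limma 3.58.1 and DESeq2 1.42.0 was used. Genes were filtered with filterByExpr (minimum count 10 in 3 libraries, 0.1396 CPM), which left 15220, and libraries were scaled by TMM. The 4 groups were fitted with edgeR's glmQLFit (legacy off) and tested with glmQLFTest: etoposide against untreated in each genotype, DKO against Null in each treatment, and the interaction, with Benjamini-Hochberg adjustment over all genes tested and a threshold of 0.05. The choice of legacy off was made after seeing the data, and with legacy on 45 of 45 member results kept their call. SE is the log2 fold change over the root of F. CPM are of the TMM-scaled library size. Alternatives were DESeq2, its size factors, limma-trend, library size alone, no filter (21587 genes), a stricter filter (mean of 1 CPM, 12026 genes), only the 6 libraries compared, replicate number taken as a block, and each library left out in turn.

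Genes named from the lists are the highest and lowest log2 fold change past the threshold among genes with a mean of 1 CPM or more, and likeness used genes with a mean of 10 CPM or more and a prior count of 2. Intervals for Tert ratios are exact binomial. Members and lists were chosen with earlier results of these data known.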

Additional observations from a re-analysis of the deposited data

Results flagged for a closer look

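These values are given because the response to etoposide differed between the genotypes past the edgeR test of that difference itself, where the result in a single genotype would not show it. The log2 difference of the response, DKO minus Null, was 0.98 for Dkc1, 0.40 for Acd, 0.24 for Terf2 and 0.24 for Terf2ip, whose call was lost in 5 alternatives (values from 0.17 to 0.21). It was 0.28 for Tfe3 and 0.49 for Tfeb, the targeted genes, whose levels in DKO MEFs were already lower before treatment, and the Tfeb call was lost without DKO untreated replicate 1 (0.40) or DKO etoposide replicate 3 (0.32). Among the telomere gene lists, the highest values past the test, by list, were 0.84 for Naf1, 0.65 for Rif1, 0.48 for Fancm and 0.45 for Ten1. The lowest values, by list, were negative: Pml (-0.96), Mus81 (-0.88), Wrap53 (-0.63) and Tnks2 (-0.59). Other genes of these lists also passed in either direction, such as Gnl3 at 0.64 and Pif1 at -0.55.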

How the results depend on the processing

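Of 45 member results, the call and direction were kept in 45 with the legacy fit, 44 with limma-trend, 44 with replicate number taken as a block, 43 with no filter, 39 with the size factors of DESeq2, 38 with DESeq2 and 27 with library size alone, and 31 of 40 were kept with the stricter filter and 34 of 35 with 6 libraries. Leaving out libraries in turn kept 505 of 540. The sign differed from the reported sign in any alternative for 11 of the 45, 10 of them with library size alone. Only Terf1 after etoposide in DKO MEFs was past the test as reported. The others had values near 0 and were not past it: Terf1, Tinf2 and Acd after etoposide in Null MEFs, Acd and Pot1a between untreated groups, Tinf2 and Pot1a between groups after etoposide, and the Pot1a, Pot1b and Tert interactions. With library size alone Tinf2 after etoposide in Null MEFs became 0.12 (adjusted p = 0.0165, range over its alternatives 0.0165 to 0.960), and Terf1 after etoposide in DKO MEFs became 0.0717 (adjusted p = 0.394, range 0.00681 to 0.394). The Tinf2 call between untreated groups, -0.11 with the block, was lost there. Over 18 pairs of libraries with the same replicate number, the median r of their deviations from the group means was 0.0123. Pairing by number was thus not seen. Whether such libraries were handled together is not given in the sources used here. Tfeb lost its interaction call without DKO untreated replicate 1 (0.40) or DKO etoposide replicate 3 (0.32).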

Other observations

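The meiotic telomere genes Terb1, Terb2 and Majin are in the table under older symbols, and 2 of the 3 were tested. Both had means under 1 CPM, so they may have passed the filter on low counts only through the groups in which they were high. The calls on these 2 genes therefore add little. By the edgeR test both were higher after etoposide in Null and in DKO MEFs, beside 42.3% and 43.7% of all genes. Both were lower in DKO than in Null MEFs after etoposide, beside 36.6% of all genes. Neither passed between untreated groups or in the interaction. Of the 12 proliferation genes, 2 rose and 8 fell after etoposide in Null MEFs (median -0.12), beside 42.3% and 37.2% of all genes (median 0.07). In DKO MEFs 2 rose and 8 fell (median -0.26), beside 43.7% and 31.5% of all genes (median 0.14). Nkd2, near Tert, was at 1.33 and 1.45 after etoposide in Null and DKO MEFs and higher in DKO by 1.07 untreated. The summed haematopoietic markers, led by Cd68, were at a mean of 14.2 CPM in Null etoposide against 4.31 CPM in DKO etoposide.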
